A study of Homo sapiens with 688 samples.

Results

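The genes described here are the 8 E2F transcription factor genes, E2F1 to E2F8, and RB1, the gene of the retinoblastoma protein that holds several E2F proteins in check. They were found by gene symbol in every table of counts and make up 9 of the 28957 gene symbols listed across the tables. The 688 libraries came from 3 established human cancer cell lines and from 2 library protocols. In PLATE-Seq, every well of a 96-well plate received its own barcode during reverse transcription, the wells were pooled, and the 3′ ends of polyadenylated transcripts were sequenced. In TruSeq, a standard protocol that covers whole transcripts, the rest of the lysate of the same BT20 wells was combined into 2 pools per condition, so the TruSeq values are a further measurement of the same cells and not a set of additional replicates.

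BT20, a breast carcinoma line, was treated for 6 h with DMSO (the vehicle) or 1 of 7 drugs, 12 wells each on a single plate. The drugs were the topoisomerase II inhibitors mitoxantrone (0.18 µM) and idarubicin (0.084 µM), the proteasome inhibitor bortezomib (0.044 µM), the MET and ALK kinase inhibitor crizotinib (7.16 µM), the nucleoside analogue gemcitabine (0.194 µM), the tubulin binder albendazole (0.56 µM) and the neurokinin receptor antagonist aprepitant (2 µM). U87, a glioblastoma line, was treated for 24 h with 184 compounds in duplicate, 1 well on each of 2 plates, and the 4 plates also held 8 DMSO wells and 8 untreated wells. LNCaP, a prostate carcinoma line, was untreated, with 192 libraries on 2 plates. By the paper's methods, lysate of each LNCaP culture well was divided between an oligo(dT) capture plate and isolation by column and beads. The 2 LNCaP plates may thus be 2 preparations of the same cultures, and plate and preparation cannot then be told apart. Doses in U87 were those that slowed growth by a set amount, and each U87 library pooled lysate from a pair of culture wells. Doses as well as times differ between BT20 and U87. Cell line and plate coincide and cannot be told apart. Nothing in the labels says that wells came from separate cultures, so the p-values below measure the spread between wells or pools only.

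E2F proteins bind DNA at genes needed for entry into S phase, mostly as pairs with a DP protein. E2F1, E2F2 and E2F3 are known as activators that RB1 binds and silences until cyclin D and cyclin E kinases phosphorylate it. E2F4 and E2F5 act mainly as repressors together with the RB1 relatives RBL1 and RBL2, E2F6 represses without RB1, and E2F7 and E2F8 are atypical repressors that bind DNA without a DP partner. The family is also wired to itself, since several E2F genes carry E2F binding sites in their own promoters.

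Promoter letters of the members were read for forms of such sites. RefSeq promoter windows (GRCh38.p14, 250 bases before to 50 after an annotated start) were at hand for 7 of the 9 members, all but E2F5 and E2F8. They were searched on both strands for the words TTTCGCG and TTTGGCG, common forms of the E2F site. Other forms of the site were not searched. The E2F1 and E2F2 windows each held both words, and E2F3 held TTTCGCG before the first of its 2 starts. The windows at hand for E2F4, E2F6, E2F7 and RB1 held neither. The RB1 window was not checked against the main start of that gene, so the RB1 promoter proper may not have been searched. Across 35116 windows of the same length, 3.19% held at least 1 of the words and 0.0456% held both. The 100 bases before the start are shown for the members that hold a word and, for contrast, for E2F6 and E2F7, which do not but also changed in BT20, with the words in capitals.
E2F1, chr20:33686386-33686485, minus strand: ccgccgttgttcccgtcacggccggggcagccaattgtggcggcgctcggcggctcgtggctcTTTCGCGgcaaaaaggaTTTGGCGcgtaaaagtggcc
E2F2, chr1:23531234-23531333, minus strand: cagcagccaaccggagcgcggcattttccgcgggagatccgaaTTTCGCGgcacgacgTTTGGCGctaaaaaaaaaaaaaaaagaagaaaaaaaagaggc
E2F3, chr6:20401779-20401878, plus strand: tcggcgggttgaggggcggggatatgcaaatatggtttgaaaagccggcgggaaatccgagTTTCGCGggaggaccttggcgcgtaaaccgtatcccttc
E2F6, chr2:11466162-11466261, minus strand: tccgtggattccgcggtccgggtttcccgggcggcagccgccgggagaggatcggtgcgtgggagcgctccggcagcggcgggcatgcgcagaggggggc
E2F7, chr12:77065570-77065669, minus strand: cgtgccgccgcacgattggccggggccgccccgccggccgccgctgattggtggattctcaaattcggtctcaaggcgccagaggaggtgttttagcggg
In E2F1 the words began 37 and 20 bases before the start, in E2F2 57 and 42 bases before it, and in E2F3 39 bases before it, all on the strand of the gene. A match of letters describes the window and does not show that a factor binds there.

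On GRCh37, the build of the count tables, GENCODE places E2F1 at chromosome 20, 32263283 to 32274191, E2F2 at chromosome 1, 23832930 to 23857725, E2F3 at chromosome 6, 20402110 to 20493945, and E2F4 at chromosome 16, 67226058 to 67232821. It places E2F6 at chromosome 2, 11584501 to 11606303, E2F7 at chromosome 12, 77415028 to 77459349, E2F8 at chromosome 11, 19245610 to 19263167, and RB1 at chromosome 13, 48877880 to 49173572. Counts were assigned to whole genes.

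Depth set which members could be tested. BT20 wells held between 367848 and 1317952 counts, TruSeq pools between 16881740 and 29068232, U87 wells between 17063 and 1537549, and LNCaP wells between 19448 and 1277169. Levels are given in CPM, the counts of a gene scaled to a common library total. The defining genes of the lines were where they belonged: KRT8 had a median of 1008 CPM in BT20 DMSO wells, KLK3 506 and 1174 CPM on the 2 LNCaP plates, and VIM 2696 CPM in untreated U87 wells, although the epithelial keratin KRT19 had a median of 0 CPM in BT20.

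E2F4, the abundant repressor form, had the highest median of the family in every cell line, although its range overlapped that of E2F1 in U87 and in LNCaP. Its median was 307 CPM in BT20 DMSO wells, 132 CPM in U87 DMSO wells and 117 and 204 CPM on the LNCaP plates. E2F1 was next in U87 (median 124 CPM, lowest 55.7, highest 259, 8 wells) and in LNCaP (medians 83.7 and 130.4 CPM, 96 wells each). In BT20 DMSO wells E2F1 had a median of 30.0 CPM, beside E2F3 at 31.2 CPM and RB1 at 22.8 CPM, and the ranges of these 3 genes over the 12 wells overlapped. The 6 most abundant symbols took a larger share of the counts in BT20, and without them the E2F1 median was 49.6 CPM in BT20 and 142 CPM in U87 DMSO wells, and the E2F4 median 504 and 147 CPM, so levels are not compared across lines. E2F3 had medians of 18.5 CPM in U87 DMSO wells and 54.1 and 38.1 CPM in LNCaP. E2F2 and E2F6 stayed between 5.83 and 9.99 CPM in every line, and neighbours in this part of the order did not differ beyond their spread. E2F7 had a median of 14.3 CPM in U87 DMSO wells, against 2.75 CPM in BT20 and 2.17 and 1.48 CPM in LNCaP. E2F8 had a median of 5.49 CPM in BT20 DMSO wells, with a count in all 12, but no count in 54 and 55 of the 96 wells of each LNCaP plate. E2F5 was at the floor in each line, with no count in 73 and 70 of them or in 11 of the 12 BT20 DMSO wells.

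**Figure D1:**
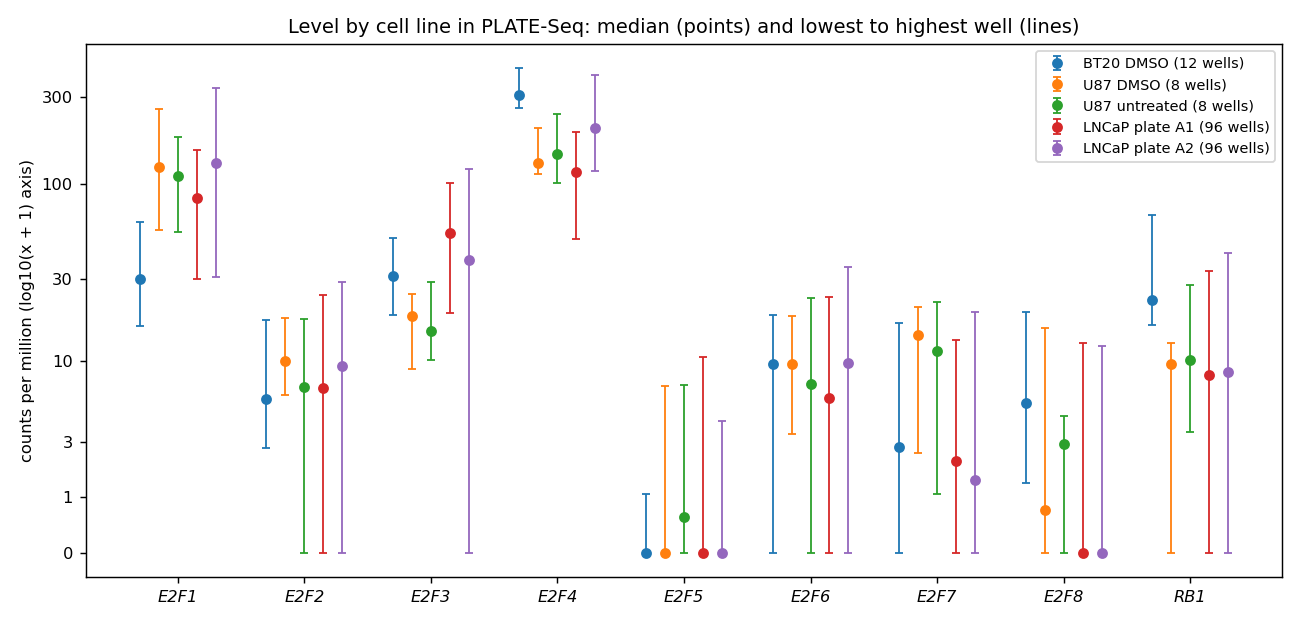
Level of each gene in PLATE-Seq wells without drug, in CPM on a log10(x + 1) axis, with points at the median and lines from the lowest to the highest well of BT20 (DMSO), U87 (DMSO and untreated) and LNCaP (2 plates). E2F4 is highest in each line, E2F1 lies near or above 100 CPM in U87 and LNCaP but at 30.0 CPM in BT20, and E2F5 lies near 0 in each line.

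CPM from 3′ ends cannot rank genes exactly, so the order was also read in the TruSeq DMSO pools per kilobase of exon. There E2F4 led with 52.8 and 56.0 CPM per kilobase in the 2 pools. E2F1 followed with 32.5 in both pools and RB1 with 24.6 and 23.4. E2F8 had 13.0 and 13.1 CPM per kilobase, above E2F3 (11.2 and 10.2), E2F6 (9.70 and 9.27), E2F2 (6.06 and 6.27) and E2F7 (2.65 and 2.40). E2F5 was last at 0.356 and 0.184. E2F8 was thus readily measured by TruSeq although its median in the same BT20 wells by 3′-end counting was 5.49 CPM.

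Topoisomerase II inhibitors are drugs that trap the enzyme on cut DNA. In BT20 cells the activator E2F2 and the repressor E2F7 rose after both of them in TruSeq, and the repressor E2F8 rose after idarubicin. E2F1 had been drawn by the study as a gene higher after both drugs, so its values are given as a description with no test and it is left out of the counts below for these 2 drugs. In PLATE-Seq the lowest, median and highest E2F1 values were 16.1, 30.0 and 62.2 CPM in DMSO wells, 25.6, 43.2 and 71.4 CPM after mitoxantrone and 23.1, 64.6 and 88.1 CPM after idarubicin. Of the 12 wells of each drug, 10 lay above the DMSO median after either drug, and 1 and 7 lay above the highest DMSO well, so the groups overlapped. The fitted log2 fold changes were 0.44 (SE 0.22) and 0.93 (SE 0.22). In the TruSeq pools E2F1 was at 87.4 and 87.6 CPM with DMSO, 175 and 177 CPM with mitoxantrone and 184 and 180.3 CPM with idarubicin, log2 fold changes of 0.96 (SE 0.05) and 1.04 (SE 0.05).

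**Figure D2:**
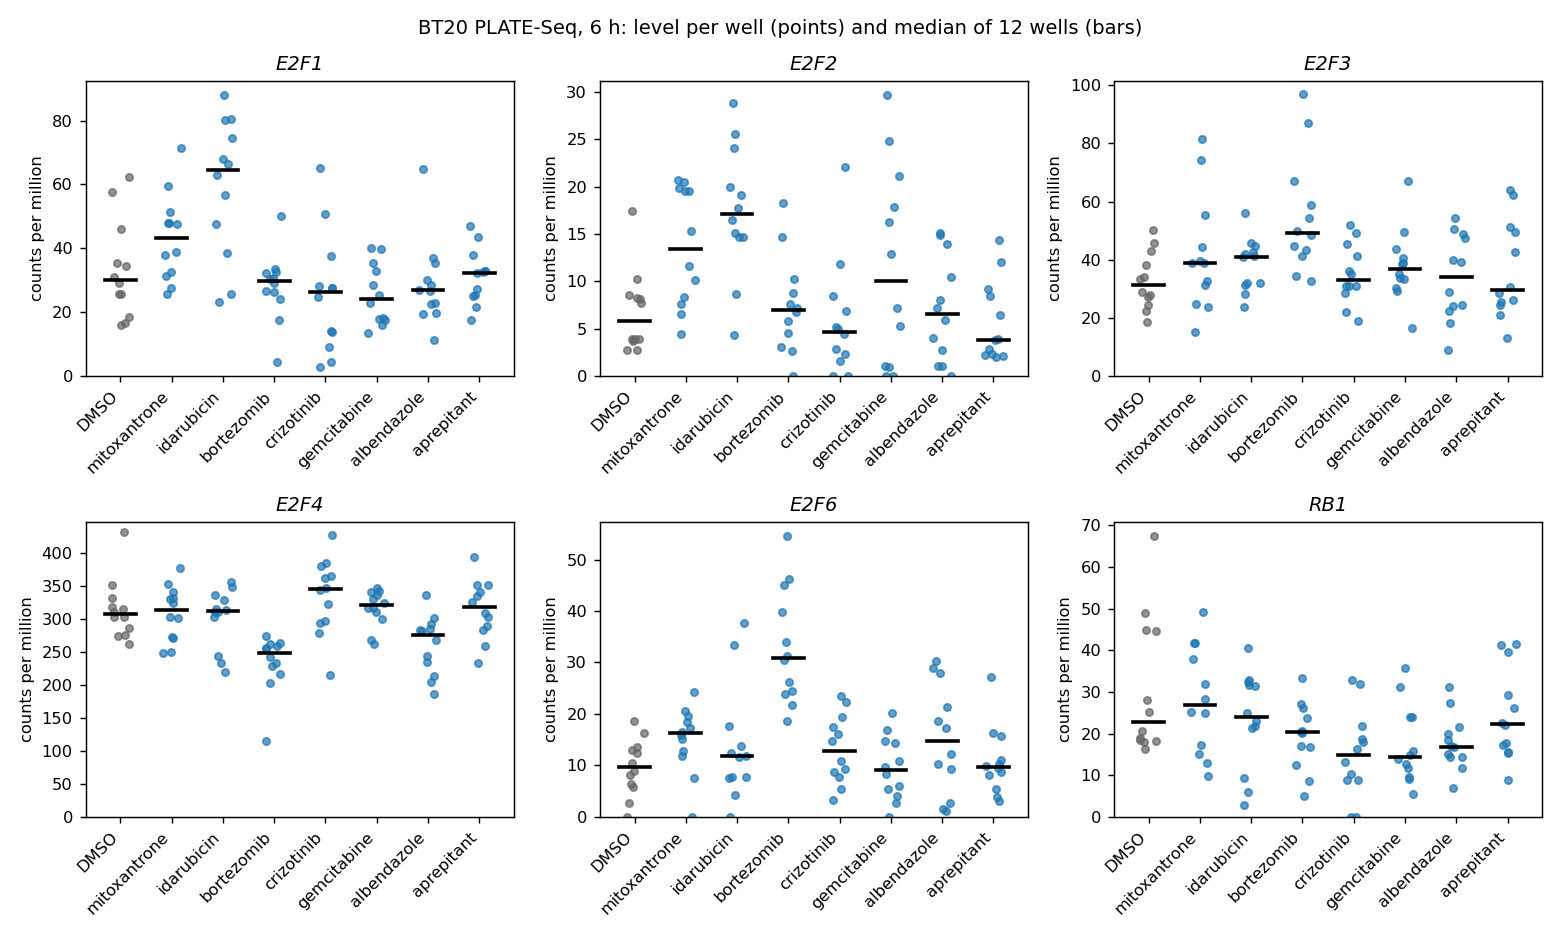
CPM of 6 members in each of the 12 BT20 wells per condition (points) with the median (bar), PLATE-Seq at 6 h. E2F1 and E2F2 sit higher after mitoxantrone and idarubicin, and all 12 bortezomib wells of E2F6, from 18.7 to 54.6 CPM, lie above the highest DMSO well.

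E2F2, the second activator, moved with E2F1. After idarubicin its lowest, median and highest PLATE-Seq values were 4.31, 17.1 and 28.8 CPM, against 2.72, 5.83 and 17.4 CPM in DMSO wells, and 11 of the 12 wells were above the DMSO median. It rose by a log2 fold change of 1.39 (SE 0.36, edgeR adjusted p = 0.0151). This was the only member called after idarubicin in PLATE-Seq, of 5 tested, beside 2.78% of the 6586 genes tested, and E2F2 passed the filter on low counts only in the comparison with idarubicin, where it was high. With all 96 wells in a single fit its adjusted p was 0.103 at a log2 fold change of 1.40. After mitoxantrone E2F2 was not tested in PLATE-Seq, and its values were 4.41, 13.5 and 20.7 CPM, with 11 of 12 wells above the DMSO median. By TruSeq, E2F2 was at 33.1 and 34.3 CPM with DMSO, at 70.8 and 68.4 CPM with mitoxantrone (log2 fold change 1.00, SE 0.06, edgeR adjusted p = 6.05e-15) and at 79.5 and 78.7 CPM with idarubicin (1.21, SE 0.06, adjusted p = 1.09e-17).

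The TruSeq pools were deep enough to test all members. Of 8 members tested after idarubicin (E2F1 left out), 3 rose and 2 fell, beside 37.4% of the 14970 genes tested (18.9% higher and 18.4% lower), and after mitoxantrone 4 rose and none fell, beside 30.8% (15.6% higher and 15.1% lower). The atypical repressor E2F7 rose from 16.7 and 15.1 CPM to 26.9 and 24.1 CPM with mitoxantrone (log2 fold change 0.64, SE 0.08) and to 32.0 and 32.4 CPM with idarubicin (1.00, SE 0.08, edgeR adjusted p = 4.91e-12). E2F8, its closest relative, was at 53.9 and 54.0 CPM with DMSO and rose by less, to 71.5 and 69.7 CPM with idarubicin (0.37, SE 0.06). With mitoxantrone E2F8 had 63.5 and 61.6 CPM (0.17, SE 0.06, edgeR adjusted p = 0.0227), a call lost when either mitoxantrone pool or either DMSO pool was left out (adjusted p between 0.0628 and 0.159). E2F3 after mitoxantrone, at 65.9 and 65.2 CPM against 58.3 and 53.1 CPM, also met the threshold (0.19, SE 0.06) and lost it without either mitoxantrone pool or without the second DMSO pool (adjusted p between 0.0557 and 0.185).

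The 2 members that fell after idarubicin did so on thin evidence. E2F5 had 57 and 28 counts in the DMSO pools and 18 and 14 in the idarubicin pools (log2 fold change -1.56, SE 0.35), and without the first DMSO pool the change was -1.001 with an adjusted p of 0.0898. RB1 was at 158 and 151 CPM with DMSO and 137 and 147 CPM with idarubicin (-0.14, SE 0.05), and its adjusted p was 0.292 without the first idarubicin pool and 0.234 without the first DMSO pool.

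Bortezomib, which blocks protein breakdown by the proteasome, moved another part of the family. E2F6, the RB1-independent repressor, had lowest, median and highest values of 18.7, 30.8 and 54.6 CPM in PLATE-Seq, against 0, 9.68 and 18.7 CPM with DMSO. All 12 bortezomib wells lay above the highest DMSO well, a separation seen in 0.284% of the genes tested. E2F6 passed the filter on low counts in 4 of the 7 PLATE-Seq comparisons, all with drugs where its mean was above DMSO, so its test there depended in part on the treated wells. It rose by a log2 fold change of 1.86 (SE 0.31, edgeR adjusted p = 1.22e-05), and in TruSeq, where it was tested with every drug, from 39.4 and 37.7 CPM to 71.3 and 76.7 CPM (1.01, SE 0.06). E2F3 also rose by both protocols. Its PLATE-Seq values were 32.7, 49.4 and 97.1 CPM with bortezomib and 18.5, 31.2 and 50.4 CPM with DMSO, so the groups overlapped, but all 12 treated wells were above the DMSO median (0.86, SE 0.20, edgeR adjusted p = 0.00331). In TruSeq E2F3 was at 77.4 and 78.0 CPM against 58.3 and 53.1 CPM (0.55, SE 0.06). These were the 2 members called of 5 tested in PLATE-Seq, beside 4.93% of 6330 genes.

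In the bortezomib TruSeq pools 3 members rose and 2 fell, beside 40.8% of genes (21.3% higher and 19.6% lower). E2F8 fell from 53.9 and 54.0 CPM to 26.0 and 25.4 CPM (log2 fold change -0.999, SE 0.06, edgeR adjusted p = 8.15e-15), the opposite direction to idarubicin. E2F4 fell from 190.0 and 201 CPM to 157 and 165 CPM (-0.21, SE 0.05). In PLATE-Seq none of the 12 bortezomib wells of E2F4 was above the DMSO median and 9 were below the lowest DMSO well, with a log2 fold change of -0.31 (SE 0.10) that missed the threshold by edgeR (adjusted p = 0.0637) and was called by DESeq2. E2F1 rose by a small amount in TruSeq, from 87.4 and 87.6 CPM to 97.9 and 95.2 CPM (0.21, SE 0.05), and its PLATE-Seq medians were 29.8 CPM with bortezomib and 30.0 CPM with DMSO.

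Crizotinib lowered most of the members that it changed. By TruSeq 4 members fell and 1 rose, beside 42.2% of genes (21.6% higher and 20.6% lower). RB1 fell from 158 and 151 CPM to 112 and 100.2 CPM (log2 fold change -0.51, SE 0.05, edgeR adjusted p = 3.37e-09). E2F1 fell to 57.6 and 66.8 CPM (-0.45, SE 0.06), E2F7 to 12.3 and 11.0 CPM (-0.42, SE 0.10) and E2F2 to 26.2 and 27.3 CPM (-0.29, SE 0.07). E2F4 was slightly higher, at 208 and 215 CPM (0.15, SE 0.05), a call lost without the second crizotinib pool (adjusted p = 0.0731) or the first DMSO pool (adjusted p = 0.146). In PLATE-Seq none of the 4 members tested passed the threshold after crizotinib, beside 2.05% of genes. RB1 there had a median of 14.8 CPM against 22.8 CPM, with 6 of 12 wells below the lowest DMSO well (log2 fold change -1.01, SE 0.35, edgeR unadjusted p = 0.00607, adjusted p = 0.131). Low RB1 values were not particular to crizotinib, since the PLATE-Seq log2 fold change was below 0 with every drug. With gemcitabine 8 of 12 wells lay below the lowest DMSO well (-0.77), and with albendazole 5 did (-0.62).

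The other 3 drugs gave 1 call in all. Albendazole gave 1 TruSeq call, RB1 at 138 and 136 CPM against 158 and 151 CPM (log2 fold change -0.17, SE 0.05), which was lost without either albendazole pool or the first DMSO pool (adjusted p between 0.100 and 0.317), beside 11.3% of genes. Aprepitant gave no call of 9 members tested, beside 1.82%, and gemcitabine none, beside 0.0%. In PLATE-Seq no member was called after these 3 drugs or after mitoxantrone, beside 0.1% (albendazole), 0.0% (aprepitant), 0.0% (gemcitabine) and 1.21% (mitoxantrone) of genes. At an unadjusted p under 0.05, RB1 alone passed edgeR's test with albendazole and with gemcitabine in PLATE-Seq and with aprepitant in TruSeq, lower each time. DESeq2 called no member in any of the comparisons without an edgeR call. E2F5, E2F7 and E2F8 did not pass the PLATE-Seq filter in any comparison. The PLATE-Seq medians of E2F8 were 3.82 CPM with mitoxantrone, 7.50 CPM with idarubicin and 5.49 CPM with DMSO, and the wells overlapped.

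**Figure D3:**
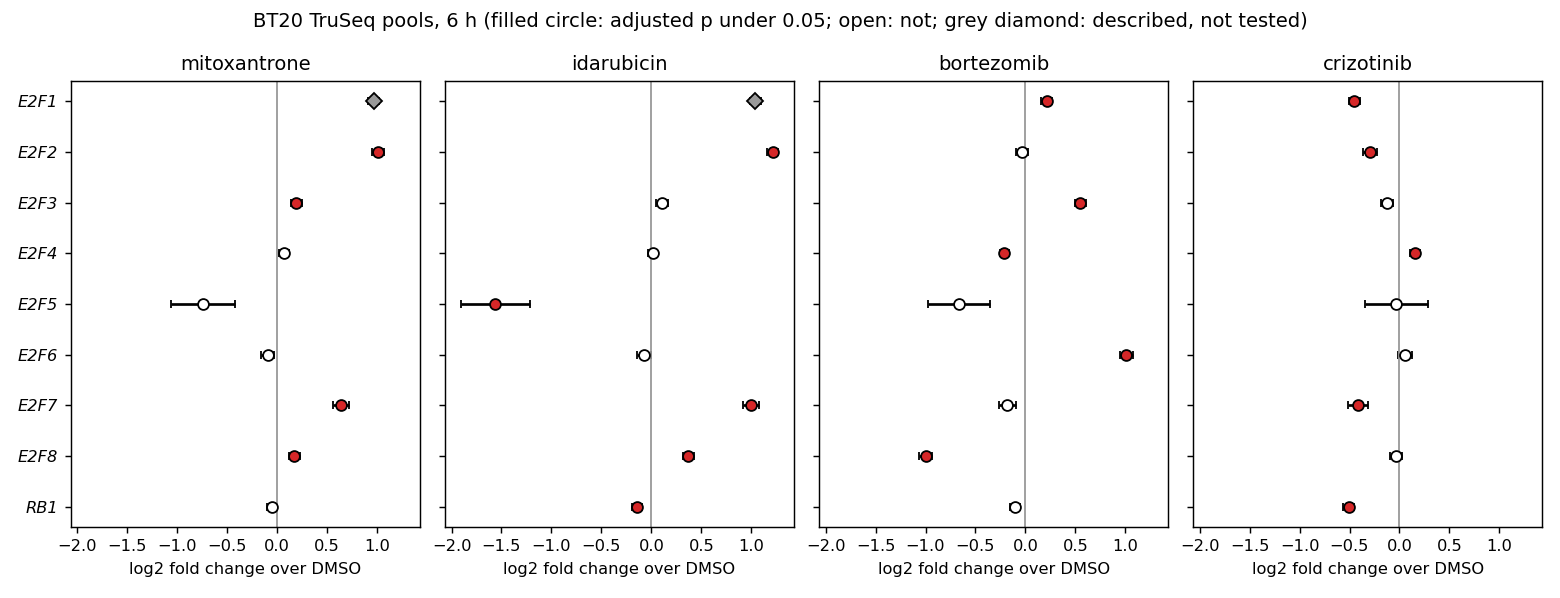
Log2 fold change over DMSO (with its standard error) of each member in the BT20 TruSeq pools for the 4 drugs with the most changed genes. Filled circles have an adjusted p under 0.05, open circles do not, and grey diamonds mark E2F1 where it is described only. E2F2 and E2F7 lie to the right with both topoisomerase II inhibitors, and E2F6 and E2F8 lie on opposite sides of 0 with bortezomib.

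Partners of the family were also called. Of the DP proteins and the pocket proteins RBL1 and RBL2, 4 genes tested by TruSeq, RBL1 rose from 60.7 ± 0.0887 to 82.0 ± 3.93 CPM (SD, n = 2) with idarubicin (log2 fold change 0.42) and from the same level to 75.0 ± 1.88 CPM with mitoxantrone (0.26). RBL2 fell with 4 drugs, with each of which 15.1% to 20.6% of all genes were lower. It fell the most with bortezomib, from 95.9 ± 2.89 to 70.8 ± 1.18 CPM (-0.37). The DP gene TFDP1 fell with crizotinib by TruSeq (-0.23) and PLATE-Seq (-0.58). TFDP1 also fell with bortezomib in PLATE-Seq only (-0.53) and rose with idarubicin by TruSeq (0.15). TFDP2 rose with bortezomib (0.35) and fell with idarubicin (-0.15) by TruSeq. Among the cyclin D and E kinases and their inhibitors, 7 of 12 rose and 4 fell after idarubicin, beside 18.9% of all genes higher and 18.4% lower. CCNE2, a cyclin E that drives the kinase which releases E2F from RB1, rose from 50.9 ± 3.33 to 104 ± 4.62 CPM (SD, n = 2; log2 fold change 1.00). CDKN1A, the p21 inhibitor of those kinases and a p53 target, rose from 12.1 ± 0.0426 to 26.1 ± 0.662 CPM with idarubicin (1.09) and to 42.0 ± 1.80 CPM with bortezomib (1.87). CDKN1B, the p27 inhibitor, fell with idarubicin (-0.46), mitoxantrone (-0.37) and bortezomib (-0.88), and rose with crizotinib (0.27). CCND1, cyclin D1, fell after crizotinib from 308 ± 1.49 to 200.0 ± 6.37 CPM (-0.58).

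A list of 32 G1/S genes that E2F proteins are known to control, such as replication origin and DNA polymerase genes, rose almost as a whole after the topoisomerase II inhibitors in TruSeq. With idarubicin 30 of the 32 rose and none fell, at a median log2 fold change of 0.52 beside 0.00 for all genes. Of all genes, 18.9% were higher and 18.4% lower with idarubicin. With mitoxantrone 28 rose and none fell, at a median of 0.42, beside 15.6% of all genes higher and 15.1% lower. CDT1, a licensing factor of replication origins, had the largest change of the list with either drug, from 69.6 ± 4.15 to 139 ± 4.20 and 131 ± 1.64 CPM (SD, n = 2). In the same pools all 20 of the G2/M genes listed fell with each drug, at medians of -1.43 and -1.08. PLK1, the mitotic kinase, went from 164 ± 9.16 to 30.1 ± 0.118 CPM with idarubicin (log2 fold change -2.46). In PLATE-Seq 6 of the 27 G1/S genes tested rose and 16 of 19 G2/M genes fell after idarubicin, beside 0.85% of all genes higher and 1.93% lower. After mitoxantrone 3 of 25 G1/S genes rose and 14 of 19 G2/M genes fell, beside 0.159% of all genes higher and 1.05% lower. After crizotinib the G1/S list was lower, with 23 of 32 genes down in TruSeq and none up (median -0.30). Of the 20 G2/M genes 3 rose and 2 fell with crizotinib, where 21.6% of all genes were higher and 20.6% lower. After bortezomib 16 of 32 G1/S genes rose, 3 fell (median 0.12), and 19 of 20 G2/M genes fell in TruSeq. Of all genes, 21.3% were higher and 19.6% lower with bortezomib. These are bulk samples, so a larger share of cells in 1 phase and more RNA per cell cannot be told apart.

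Over the 8 TruSeq conditions the genes whose log2 CPM ran closest to E2F1 were ZNF367 (Pearson r = 0.996), MCM7, a subunit of the replicative helicase (0.995), and HNRNPM (0.994), of 7738 genes with a mean of at least 20 CPM. E2F2 had an r of 0.974, RB1 0.603, E2F3 0.512, E2F8 0.395, E2F4 0.116 and E2F6 -0.0819, and the median over all genes was 0.17. The 8 points share the plate, and 2 of them are the mitoxantrone and idarubicin values for which E2F1 had been drawn, so the likeness is a description of those values and supports nothing further.

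In U87 cells at 24 h no compound class had a member called higher than DMSO. The classes, 15 groups with 78 of the compounds, were formed from general knowledge of the compounds and compared with DMSO in a fit with a term for the plate. The standard error of a class rests on the spread between the wells of a compound or control and not on that between compounds, so it and the p-value apply to these compounds only. In all, 10 of 105 member tests were called, all lower, beside 7.79% of tests over all genes and 4.8% in the lower direction. E2F1 and E2F2 accounted for 9 of them and E2F4 for 1. E2F5 and E2F8 did not pass the filter, and E2F3, E2F6, E2F7 and RB1 had no call in any class. Treated wells of E2F2 reached at most 10.4 CPM with MEK, 13.1 with HDAC, 6.48 with CDK, and 5.49 with transcription and BET inhibitors. DMSO wells reached 17.8 CPM. In these classes E2F2 thus passed the filter on low counts at least in part through control wells, where it was high.

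DMSO wells of U87 spread widely and by plate, which bounds these comparisons. E2F1 was at 119 and 55.7 CPM in the 2 DMSO wells of the first plate, 129 and 59.2 CPM in those of its duplicate, 155 and 153 CPM on the third plate, and 259 and 98.8 CPM on its duplicate. Untreated wells ran from 54.4 to 181 CPM. E2F2 was at 6.19 to 17.8 CPM in the 8 DMSO wells.

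With the 11 topoisomerase II inhibitors, E2F1 had lowest, median and highest values of 14.0, 63.1 and 349 CPM over 22 wells, and 12 wells lay below both DMSO wells of their plate and 1 above. The class log2 fold change was -0.82 (SE 0.18, edgeR adjusted p = 0.00142), beside 11.2% of 9141 genes called. E2F2 ran from 0 to 26.0 CPM with a median of 2.88 CPM, 19 of the 22 wells were below both DMSO wells, and its log2 fold change was -1.51 (SE 0.43, adjusted p = 0.0113). Both calls were lost without the first well of each compound, with all control wells kept (E2F1 -0.66 and E2F2 -1.41). By plate, the mean E2F1 log2 difference was -0.93 and -0.81 on the first pair of plates, and -0.92 and -0.01 on the second, where only 3 of the compounds were placed. In BT20 at 6 h the same 2 genes were higher with 2 drugs of this class, but line, time and dose all differ, so the values are set side by side and not compared.

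Single topoisomerase II inhibitors differed in size. E2F1 was lowest with Amsacrine (1.8 µM) at 20.9 and 20.8 CPM (log2 fold change -2.08, SE 0.44, edgeR adjusted p = 0.00450) and with Teniposide (0.629 µM) at 14.0 and 35.6 CPM (-1.83, SE 0.44, adjusted p = 0.0101). The Amsacrine call was lost without either of its wells (adjusted p = 0.156 and 0.132) and the Teniposide call without the first (0.212, at -1.38), and both without the plate term (0.192 and 0.161). Etoposide (3 µM), the other podophyllotoxin of the set, had 31.2 and 43.3 CPM (-1.27, SE 0.38, adjusted p = 0.0627). Pirarubicin, Voreloxin, Epirubicin, Daunorubicin, Doxorubicin and mitoxantrone (as the dihydrochloride, 0.012 µM) had log2 fold changes between -0.98 and -0.46, none of which passed the test, and both Doxorubicin wells were of low depth. Idarubicin at 0.024 µM left E2F1 at 93.4 and 96.4 CPM, within its DMSO wells (0.06, SE 0.32). Pixantrone (7.11 µM) had 134 and 349 CPM, the latter above both DMSO wells of its plate (0.48, SE 0.33, adjusted p = 0.775). Doses differ among these compounds, so no pair was tested.

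**Figure D4:**
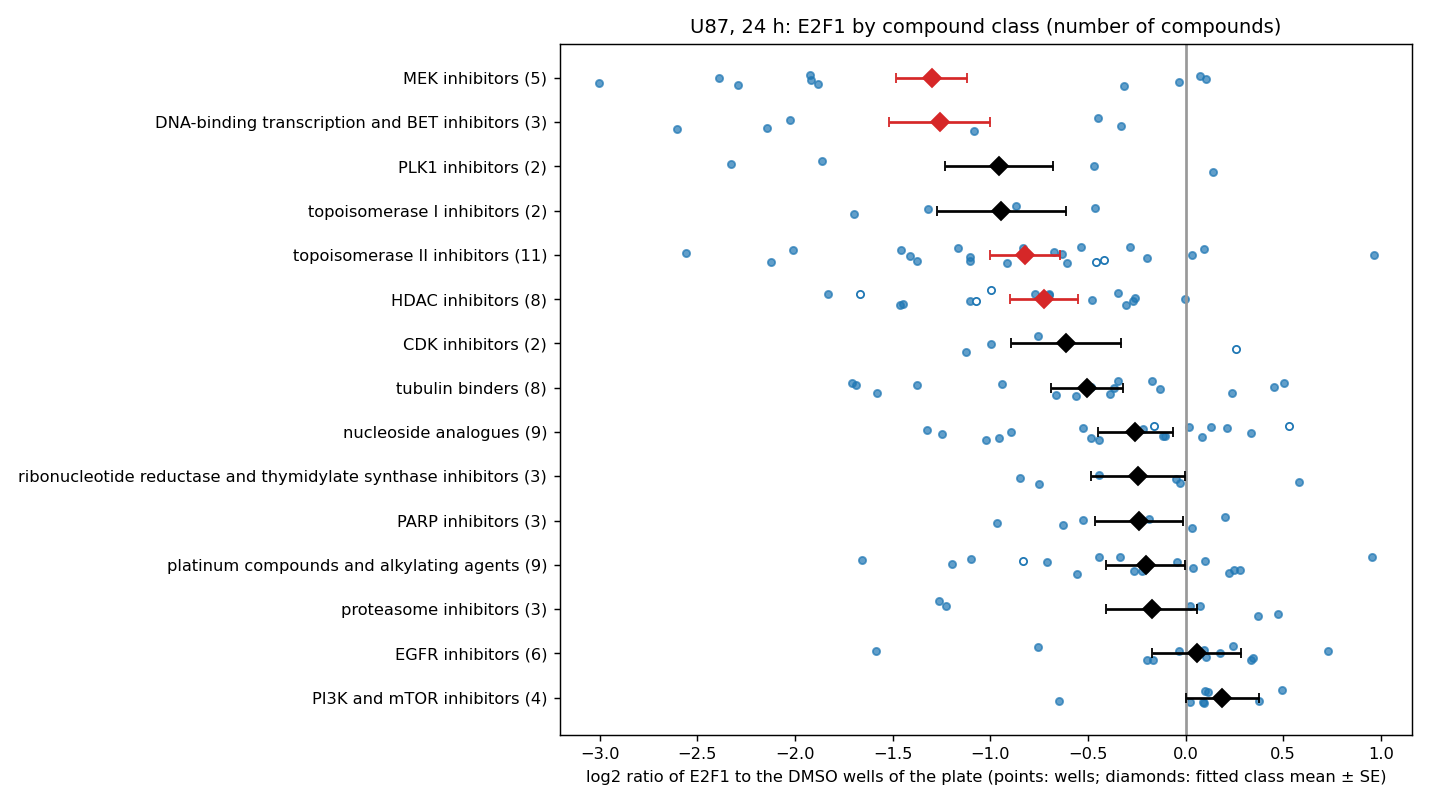
Log2 ratio of E2F1 in each U87 well to the mean of the DMSO wells of its plate (points, open where the well had under 0.5 times the median total of its plate) by compound class, with the fitted class mean and its standard error (diamonds, red where the adjusted p is under 0.05). The MEK class splits into wells near 0 and wells between -1.88 and -3.01, and the topoisomerase II inhibitors spread from -2.56 to 0.96.

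MEK inhibitors, which cut growth factor signalling to cyclin D, gave the lowest class value for E2F1, a log2 fold change of -1.30 (SE 0.18, edgeR adjusted p = 3.53e-07), beside 21.5% of genes called. The class was not uniform. Refametinib (18.3 and 35.7 CPM), Pimasertib (28.6 and 47.7 CPM) and TAK-733 (39.9 and 46.5 CPM) had log2 fold changes of -2.48, -2.14 and -1.88, all called, and all on the second pair of plates. Trametinib (94.1 and 75.5 CPM) and Cobimetinib (85.3 and 99.2 CPM), on the first pair, had -0.07 and 0.06 and lay within their DMSO wells. Compound and plate pair cannot be told apart here. E2F2 had a class log2 fold change of -2.75 (SE 0.64, adjusted p = 0.000695) with 9 of 10 wells below both DMSO wells. E2F4 had a log2 fold change of -0.35 (SE 0.12, adjusted p = 0.0208). This call was lost without the first well of each compound (-0.34) and without the second (-0.36). It was also lost without DMSO replicate 7 (edgeR adjusted p = 0.0720) and without the plate term (0.2496).

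Compounds that block transcription, the DNA binders Dactinomycin and Mithramycin A and the BET inhibitor OTX015, left E2F2 at 0 CPM in 4 of 6 wells and at no more than 5.49 CPM in any. The class log2 fold change was -3.72 (SE 0.81, edgeR adjusted p = 0.000609) for E2F2 and -1.26 (SE 0.26, adjusted p = 0.000930) for E2F1, beside 16.4% of genes. Without the first well of each compound the E2F1 value was -0.95 and its call was lost. The 8 HDAC inhibitors, which raise histone acetylation, lowered E2F1 by -0.73 (SE 0.17, adjusted p = 0.00144) and E2F2 by -1.41 (SE 0.45, adjusted p = 0.0137), beside 28.1% of genes, with 11 and 13 of 16 wells below both DMSO wells and 3 of the wells at low depth. The E2F1 call was lost without the first well of each compound (log2 fold change -0.66) and the E2F2 call without the second (-1.03). The 2 CDK inhibitors left E2F2 at 0 to 6.48 CPM (-3.47, SE 0.95, edgeR adjusted p = 0.0242), beside 3.82% of genes called. This call was lost without the first well of each compound (-3.61), without the second (-3.19) and without wells of low depth (-3.51). It was also lost without the plate term (edgeR adjusted p = 0.110).

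The other 10 classes gave no call by edgeR, where between 0 and 2 of 7 members had an unadjusted p under 0.05, and DESeq2 called E2F1 lower in 2 of them, with PLK1 and with topoisomerase I inhibitors. E2F1 had log2 fold changes of -0.96 with the 2 PLK1 inhibitors (SE 0.28, edgeR adjusted p = 0.0586) and -0.94 with the 2 topoisomerase I inhibitors (SE 0.33, adjusted p = 0.122). It stood at -0.50 with tubulin binders (SE 0.18, adjusted p = 0.161) and between -0.26 and 0.19 with nucleoside analogues, platinum and alkylating agents, ribonucleotide reductase, PARP, proteasome, EGFR, and PI3K and mTOR inhibitors. E2F2 was below 0 in every one of these classes, though not called. Its log2 fold changes ran from -1.91 with PLK1 inhibitors (SE 0.74) to -0.15 with ribonucleotide reductase and thymidylate synthase inhibitors (SE 0.44).

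Compound by compound, E2F1 was tested with all 184 and called lower with 16 and higher with none, 8.7% of its tests beside 2.65% over all genes and compounds and 1.35% in the lower direction. The lowest log2 fold changes were with NSC 663284 (7.7913 µM), a CDC25 phosphatase inhibitor, at 19.3 and 46.5 CPM (log2 fold change -2.83, SE 0.69, edgeR adjusted p = 0.00636), Refametinib (adjusted p = 2.88e-05) and Pimasertib (adjusted p = 0.000248). Both wells of NSC 663284 were of low depth, its call was lost without either of them (adjusted p = 0.135 and 0.124), and the median log2 fold change of all genes with it was -0.57, against -0.01 with Refametinib. Of these 16 calls, 1 remained, Refametinib, when the plate term was left out (log2 fold change -2.41, adjusted p = 0.0283). The wells themselves were less clear: both wells lay below both DMSO wells of their plates with 36 of 184 compounds, a share like the 19.9% over all genes and compounds, and above them with 6, where all genes had 12.8%. For E2F2 both wells lay below both DMSO wells with 97 compounds and above them with 3. Its log2 fold change was negative with 92 of the 118 compounds tested, at a median of -0.77. Untreated wells had an E2F2 median of 6.98 CPM, against 9.99 CPM in DMSO wells. Low E2F2 values against DMSO were thus not particular to the called classes.

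Single calls for other members were few. E2F2 had no count in either well of the CDK4 and CDK6 inhibitor Palbociclib (0.1 µM), against 6.19 to 17.4 CPM in the 4 DMSO wells. It thus passed the filter there through control wells only. This was the 1 call in 118 tests (edgeR adjusted p = 0.0486). That call was lost without DMSO replicate 1, 2 or 3 (adjusted p = 0.0880, 0.0584 and 0.0770) and without either treated well (0.182 and 0.501). RB1 was higher with OTX015 (3.909 µM) at 19.2 and 34.9 CPM, against 1.25 to 12.7 CPM in DMSO wells (log2 fold change 2.29, SE 0.66), but without the second well the change was 0.79 with an adjusted p of 0.614. RB1 was also higher with HOMIDIUM BROMIDE (3.2635 µM), a DNA intercalator, at 41.8 and 17.5 CPM (1.95, SE 0.57), a call lost without either treated well (adjusted p = 0.145 and 0.268) or without DMSO replicate 5, 6 or 8 (0.0928, 0.0791 and 0.0692). High RB1 values against DMSO were not particular to these 2 compounds. Over the 123 compounds tested the median RB1 log2 fold change was 0.66, and 26 were negative. Untreated wells of the same plates ran from 4.35 to 27.4 CPM for RB1. E2F4 was lower with Pimasertib (0.911 µM) at 110.5 and 87.0 CPM (-0.75, SE 0.24) and higher with Bortezomib (0.01 µM) at 142 and 218 CPM (0.70, SE 0.21), whereas in BT20 at 0.044 µM and 6 h it had been lower. The Pimasertib call was lost without either treated well (adjusted p = 0.320 and 0.113) or without DMSO replicate 5 or 7 (0.0835 and 0.0827), and the Bortezomib call without its second well (0.236) or DMSO replicate 4 (0.0573). All 6 single calls of E2F2, E2F3, E2F4 and RB1 were lost without the plate term and when adjusted over all compounds of a set. The E2F3 call with CELASTROL (8.3691 µM) rests on 3 and 7 counts in wells of low depth and was lost without either of them (adjusted p = 0.100 and 0.444) or without DMSO replicate 6, 7 or 8 (0.0780, 0.0775 and 0.104). E2F6 and E2F7 had no call by edgeR in 92 and 131 tests, of which 5 and 13 had an unadjusted p under 0.05.

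In the classes where E2F1 was called lower, the median of the G1/S list was lower as well. In classes without a call the signs could differ. With ribonucleotide reductase and thymidylate synthase inhibitors E2F1 was at -0.24 and the list median at 0.08. With PI3K and mTOR inhibitors they were at 0.19 and -0.22. With topoisomerase II inhibitors 20 of 28 G1/S genes tested were lower and none higher (median log2 fold change -0.86 beside -0.04 for all genes). All 20 G2/M genes were lower with them (-0.95), beside 7.13% of all genes lower. With MEK inhibitors 22 of 29 G1/S genes and all 20 G2/M genes were lower (medians -1.15 and -1.16), beside 11.7% of all genes lower. With PLK1 inhibitors the medians were -0.48 for G1/S genes, 5 of 29 lower, and 0.15 for G2/M genes, none called, beside 1.82% of all genes lower. With proteasome inhibitors they were -0.23, with 5 of 30 lower, and -0.96, with 15 of 20 lower, beside 5.13% of all genes lower. The difference between the lists was not tested. All comparisons of a plate pair share the same DMSO wells. Over the 184 compounds the genes closest to E2F1 were GINS2 (Pearson r = 0.631), MCM5 (0.616) and RNASEH2A (0.580), of 5727 genes, with a median of 0.0658 over all genes. GINS2 and MCM5 belong to the replicative helicase, and RNASEH2A to an enzyme that removes RNA from DNA. E2F4 had an r of 0.257 and E2F3 of 0.0362. The points share DMSO wells and plates and differ in depth.

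**Figure D5:**
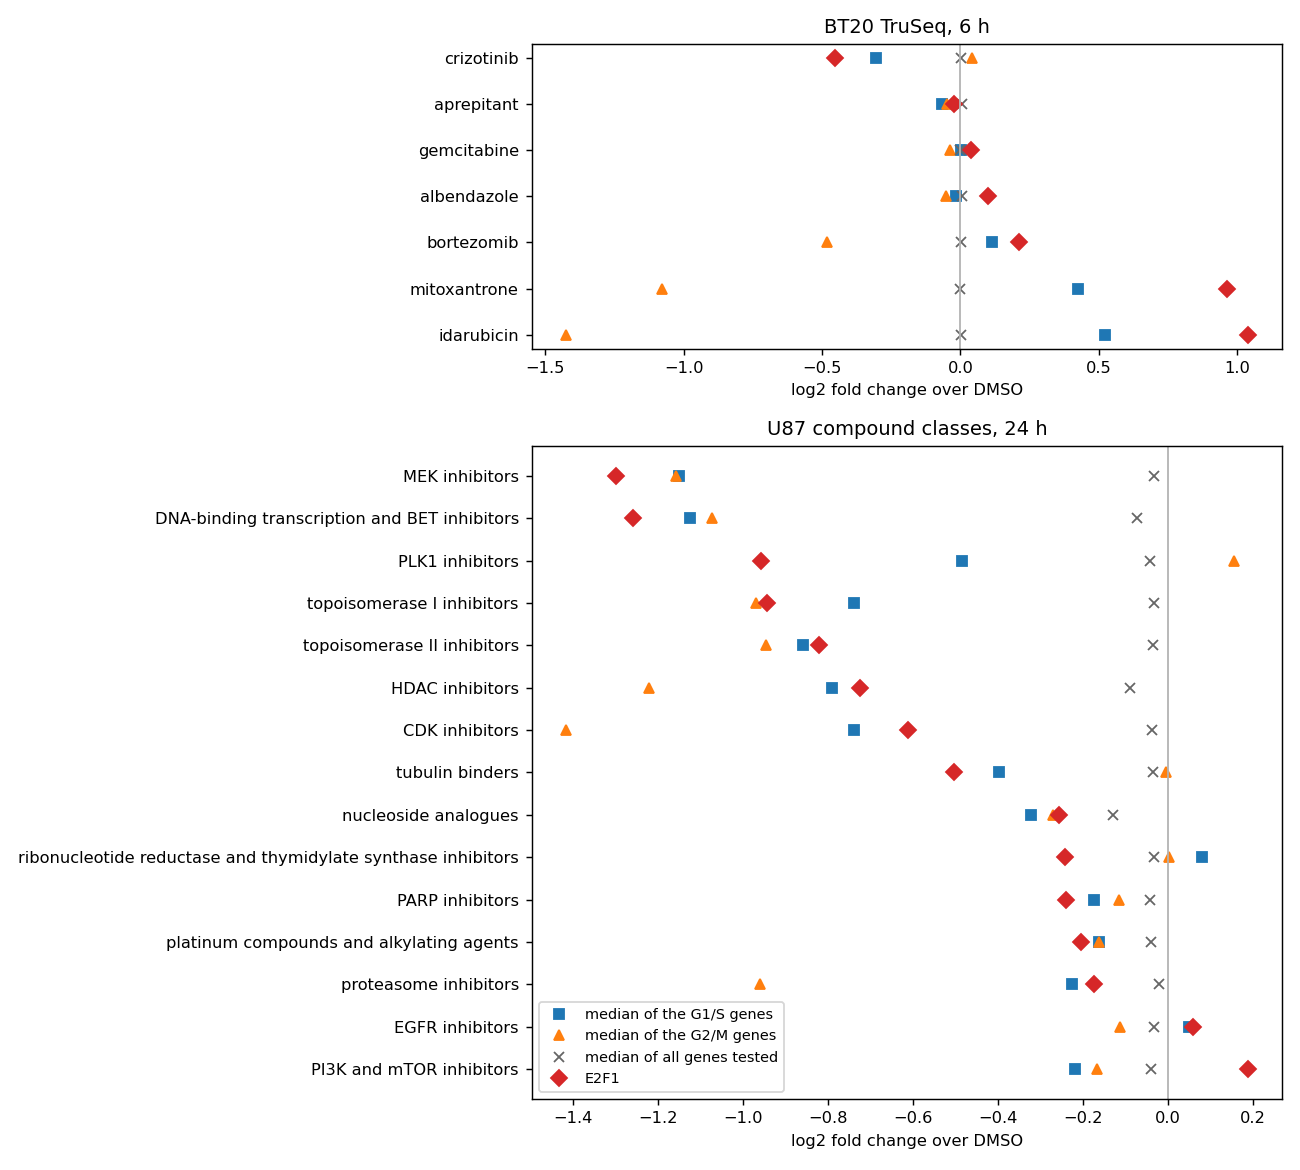
Log2 fold change over DMSO of E2F1 (diamonds), the median of the G1/S list (squares), the median of the G2/M list (triangles) and the median of all genes tested (crosses), for the 7 drugs in BT20 TruSeq pools at 6 h and the 15 compound classes in U87 wells at 24 h. In BT20 the topoisomerase II inhibitors place E2F1 and the G1/S list right of 0 and the G2/M list left of it, at -1.43 with idarubicin, whereas in U87 all 3 lie left of 0 for that class.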

How the data were processed

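The deposited tables hold raw counts per gene symbol, made by the authors. For PLATE-Seq they aligned reads with BWA to UCSC transcripts of hg19, sorted them by well barcode and counted, per gene, reads whose best alignment on the correct strand fell to a single gene, without molecular identifiers, so counts are reads and not molecules. How TruSeq reads were counted is not given in the sources used here. The BT20 files list 28430 symbols, and 23710 symbols are in the U87 and LNCaP files, after spike-in rows were left out. The members and gene lists were chosen with earlier results of these data known.

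CPM is a count scaled to a common library total. Drugs were compared with DMSO by edgeR 4.0.16 (quasi-likelihood test, TMM, filterByExpr with a minimum count of 10, R 4.3.3), with Benjamini-Hochberg adjustment over all genes of a comparison and calls at an adjusted p under 0.05. BT20 wells were fitted drug by drug, the 16 TruSeq pools together, and U87 compounds with the DMSO and untreated wells and a term for the plate. Standard errors are of the log2 fold change. Beyond the members, genes were named by rule: per list and BT20 comparison at most 2 genes in each direction, with the largest called change and at least 20 CPM, the 11 topoisomerase II inhibitors for E2F1, at most 3 compounds a direction for each member, and the 3 genes closest to E2F1. LNCaP wells entered no test.

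On data simulated from the BT20 PLATE-Seq idarubicin wells (6265 genes), 76.3% of changes of 2-fold and 97.6% of changes of 4-fold were recovered. For the TruSeq idarubicin pools (14814 genes) these shares were 86.9% and 98%, and for U87 wells of idarubicin (7146 genes) 37.1% and 75.5%. Alternatives were RLE scaling, DESeq2 1.42.0, no filter, other blocks and controls, and left-out libraries.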

Additional observations from a re-analysis of the deposited data

Results flagged for a closer look

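In 2 of 18 groups of 8 U87 control wells, each a member in the DMSO or in the untreated wells, 1 well stood apart from the rest by Dixon's test. Where values follow a normal distribution, chance alone marks about 1 group in 20. Both groups marked lay near 0 counts, where that rate need not hold. E2F8 was at 15.7 CPM in 1 DMSO well, where the others were between 0 and 2.59 CPM. E2F5 was at 7.16 CPM in 1 untreated well, where the others were between 0 and 1.49 CPM. Neither gene passed the filter on low counts in U87 and neither was tested there. The DMSO well served as a control for the other members. The untreated well entered the fits as part of a group of its own and not the main contrasts with DMSO.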

How the results depend on the processing

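The number of member calls was 3 in BT20 PLATE-Seq (3 to 4 under the alternatives), 20 in BT20 TruSeq (20 to 22, and 15 to 21 with 1 pool left out), 10 in U87 classes and 22 in U87 single compounds, and no called value changed sign. Runs of 8 BT20 wells were taken as a replicate block: 3 calls with the block, all shared with the fit without it, and no drug well deviated with the DMSO well of its run (0 of 84 correlations above 0.1). In U87 the plate term is the block. Without this replicate block 8 class calls were left, and 1 of 22 single compound calls. U87 class calls ranged from 4 to 14 with 1 well set left out, the 4 without the first duplicate of each compound, and were 14 with no filter. Single compound calls were 46 with no filter, 14 when adjusted over all compounds of a set, and ranged from 7 to 36 with 1 well set left out. The 7 came without either duplicate of each compound and the 36 without DMSO replicate 8, the lower E2F1 well of its plate. Leaving out U87 wells of low depth, an alternative added after seeing the data, gave 9 and 20 calls. The order of the members by level was the same without the 6 most abundant symbols in each cell line. With 2 wells per compound the self-test recovered 37.1% of 2-fold changes in U87, so a missing call there is weak evidence.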
